A study of Mus musculus with 8 samples.

Results

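The slow fibre contractile genes examined here were Tnnt1, Tnni1, Tnnc1, Tpm3, Myl2, Myl3, Mybpc1, Myoz2, Csrp3 and Mb, found in the table by gene symbol, a list drawn up with earlier results of these data known. These 10 genes, of 15349 with a symbol in the table, held 91 of its 56483 polyadenylation sites (APSs). Gastrocnemius muscle, a mainly fast muscle of the calf, was taken from mice lacking AMPKα1, the catalytic subunit of AMP-activated protein kinase encoded by Prkaa1, or AMPKα2, encoded by Prkaa2, and from their wild-type (WT) controls. Each of the 4 groups (AMPKα1 KO, AMPKα1 WT, AMPKα2 KO, AMPKα2 WT) held 2 mice with 1 library each, 8 libraries in all, read from the 3′ ends of polyadenylated RNA by WTTS-seq. The knockouts were whole-body deletions with no other allele or agent named. The study's methods give an age near 6 weeks for AMPKα1 KO and near 8 weeks for AMPKα2 KO animals, and none for the WT animals. The labels call all animals adult C57BL/6, whereas the methods name another strain for AMPKα1 KO mice. KO and WT are used here as the libraries were labelled, and KO was compared with WT only within a model.

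Slow (type I) fibres contract with their own set of sarcomere proteins. In the thin filament, tropomyosin and the troponin complex (T binding tropomyosin, I inhibiting the actin-myosin interaction, C binding calcium) switch contraction on and off. In the thick filament, myosin light chains brace the lever arm of the myosin head, and myosin binding protein C tunes cross-bridges. Fast fibres use paralogous genes for most of these parts. Type I fibres are also rich in myoglobin, the oxygen store of red muscle, and fibre type proportions respond to innervation, exercise and energy metabolism.

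The sequences below show what the reads of these genes ended on, because the results differ between ordinary 3′ ends and sites inside genes. The genes lie on chromosomes 7 (Tnnt1 and Csrp3), 1 (Tnni1), 14 (Tnnc1), 3 (Tpm3 and Myoz2), 5 (Myl2), 9 (Myl3), 10 (Mybpc1) and 15 (Mb). Each window of 30 bases ends at the site (GRCm38, written on the strand of the gene, bases from GENCODE release 21 transcripts), and capitals mark the polyadenylation signal AATAAA or ATTAAA.
Tnnt1, 3′ UTR, chr7:4504660-4504689, minus strand: caaAATAAAgtgcccccaggcatctgctta
Tpm3, proximal 3′ UTR, chr3:90092100-90092129, plus strand: aaccccatATTAAAatgttaagctgccaga
Tpm3, distal 3′ UTR, chr3:90100873-90100902, plus strand: tgaAATAAAgaaccagtccctccacgatca
Csrp3, 3′ UTR, chr7:48830405-48830434, minus strand: atgggagagacAATAAAtgttttagtggta
Mybpc1, 3′ UTR, chr10:88518338-88518367, minus strand: ctttctttcctcctaactttgaagaaagta
The Mybpc1 window held neither signal, and the transcript continued with 9 consecutive As after that site. The Tnni1 site, not printed, was also followed by 9 consecutive As, with an ATTAAA starting at -7. The windows of Myl2 and Myl3, not printed, ended with the transcript, 4 and 1 bases before the site. Of 11 such windows for the 10 genes, 6 held AATAAA, 3 held ATTAAA without it and 2 held neither. The last 30 bases of 37848 annotated coding transcripts of genes in the table held these in 36.0%, 8.97% and 55.1% of cases, searched on the strand of the transcript only.

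Other reads ended inside coding exons. The largest such sites of Tnnt1 lay in exons 8, 9, 10 and 11 of the 14 exons of its transcript, shown with 30 bases on each side of the point where reads ended and with the run of As at that point in capitals.
Exon 8, chr7:4509963-4510022, minus strand: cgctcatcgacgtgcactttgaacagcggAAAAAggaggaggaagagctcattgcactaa
Exon 9, chr7:4509559-4509618, minus strand: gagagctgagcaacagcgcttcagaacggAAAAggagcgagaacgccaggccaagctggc
Exon 10, chr7:4509037-4509096, minus strand: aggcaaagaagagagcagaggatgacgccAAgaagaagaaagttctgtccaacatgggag
Exon 11, chr7:4508487-4508546, minus strand: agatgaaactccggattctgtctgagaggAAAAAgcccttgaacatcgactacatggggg
The 30 bases after these sites held between 10 and 13 As.

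The libraries held 2311242 to 3549156 counted reads. Scaled by these totals, 3 reads, taken as the smallest count that can be told from 0, stood for 0.845 to 1.30 CPM (read counts scaled to a common library size). With the scaling factors within a model (TMM) that the CPM values below use, 3 reads stood for other values. These were, for example, 1.91 CPM in AMPKα2 KO 1 and 0.877 CPM in AMPKα2 WT 1. The share of reads at sites with a gene was 97.2% to 98.1% in the AMPKα1 model and 82.1% to 84.7% in the AMPKα2 model. Replicates were less alike in the AMPKα1 model, with a biological coefficient of variation of 104% at gene level against 26.2% in the AMPKα2 model. Reads of the deleted genes did not separate KO from WT. Prkaa1 had 0 and 82 reads in AMPKα1 KO against 15 and 0 in AMPKα1 WT, and Prkaa2 had 40 and 71 reads in AMPKα2 KO against 87 and 62 in AMPKα2 WT. The study describes deletions of part of each catalytic domain. The codons removed from Prkaa2 lie between its sites, 4 after and 3 before them, and none inside, so its reads do not check the labels. Both Prkaa1 sites lie in introns between the first and last codon removed. The 82 reads of the library labelled AMPKα1 KO 2, and the 15 of AMPKα1 WT 1, ended at 1 of these, in intron 2 at position 5163362 of chromosome 15. They go against the KO label if the deletion took out the introns as well, which the sources used here do not say. Results of the AMPKα1 model are therefore also given without that library. The 6 markers of skeletal muscle were present in each library, with a summed level of 42499 to 112769 CPM. Of 5 heart markers, 3 were in the table, with a summed level of 1.66 to 25.6 CPM, and Nppa and Mybpc3 were not among its genes.

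In the AMPKα2 model each slow gene had a higher mean in KO than in WT, and none passed the test at gene level. CPM values below were scaled with TMM factors within the model, the value of each library is given, and folds come from edgeR's quasi-likelihood fit. In bulk muscle, more slow fibres, more RNA per slow fibre and more tissue of the neighbouring soleus cannot be told apart. Among the troponins, Tnnt1 stood at 366 and 411 CPM in the KO libraries and at 86.2 and 224 CPM in the WT libraries. The means were 388 ± 31.6 CPM and 155 ± 97.6 CPM (SD, n = 2). Both KO libraries lay above both WT libraries, and on this TMM scale the WT libraries differed more from each other than the KO libraries did. The log2 fold change was 1.33 (SE 0.42, adjusted p = 0.420, edgeR). Tnni1, the inhibitory subunit, stood at 115 and 119 CPM in KO against 53.8 and 75.5 CPM in WT, without overlap. Its log2 fold change was 0.86 (SE 0.26, adjusted p = 0.321, edgeR). Tnnc1, the calcium-binding subunit shared with heart, stood at 24.2 and 27.9 CPM in KO against 9.35 and 14.2 CPM in WT. These levels rest on only 30 to 71 reads per library, and the log2 fold change was 1.18 (SE 0.34, adjusted p = 0.298, edgeR). Tpm3, the slow tropomyosin, stood at 367 and 390 CPM in KO against 112 and 223 CPM in WT. Its groups did not overlap either, with a log2 fold change of 1.18 (SE 0.32, adjusted p = 0.285, edgeR). The table also lists Tpm3-rs7, a near copy of Tpm3, with 62 to 144 reads in these libraries, and how reads were divided between the copies is not given in the sources used here.

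The thick filament genes showed the same order of groups with 1 exception. Myl2, the slow regulatory light chain, stood at 346 and 325 CPM in AMPKα2 KO and at 102 and 230 CPM in WT (log2 fold change 1.02, SE 0.36, adjusted p = 0.454, edgeR). Mybpc1, the slow myosin binding protein C, stood at 570 and 393 CPM in KO against 226 and 264 CPM in WT (log2 fold change 0.97, SE 0.27, adjusted p = 0.285, edgeR). For Mybpc1 the spread on the TMM scale was larger in KO, whereas for Myl2 it was larger in WT. Myl3, the slow essential light chain, overlapped between the groups, at 350 and 411 CPM in KO against 182 and 386 CPM in WT (log2 fold change 0.43, SE 0.34, adjusted p = 0.778, edgeR).

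Of the genes outside the filaments, Myoz2 and Mb followed the same order of groups and Csrp3 did not. Myoz2, a Z-disc protein that binds calcineurin, stood at 26.8 and 26.8 CPM in AMPKα2 KO and at 9.65 and 23.6 CPM in WT, counted from 33 to 68 reads. Its log2 fold change was 0.73 (SE 0.41, adjusted p = 0.669, edgeR). Mb, encoding myoglobin, stood at 1215 and 1185 CPM in KO against 756 and 1000 CPM in WT, a log2 fold change of 0.45 (SE 0.27, adjusted p = 0.684, edgeR). Csrp3, the muscle LIM protein of the Z-disc, overlapped between the groups, at 41.5 and 75.9 CPM in KO against 45.0 and 51.5 CPM in WT (log2 fold change 0.30, SE 0.31, adjusted p = 0.843, edgeR).

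**Figure D1:**
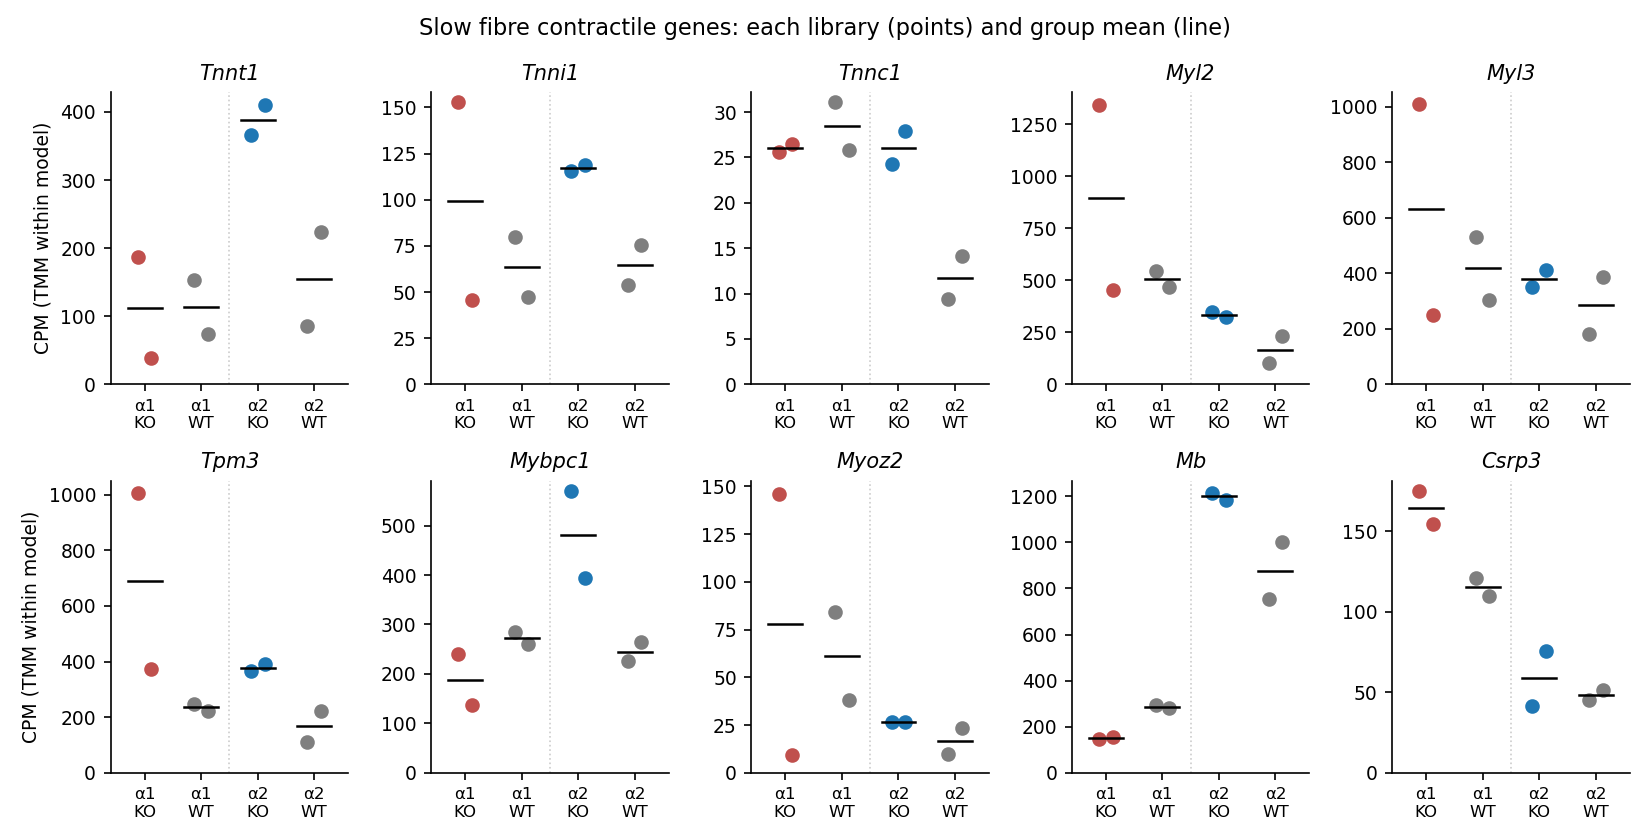
CPM of each slow gene (vertical axis, linear from 0, scaled with TMM factors within each model) in the 2 libraries of each group (points) with the group mean (line). In the AMPKα2 model the KO points lie above the WT points for 8 genes, with AMPKα2 WT 1 the lowest library for each of these 8, and in the AMPKα1 model KO 1 stands more than 2-fold above KO 2 for 6 genes.

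Over the list, 10 of 10 log2 fold changes were above 0 in AMPKα2, with a median of 0.92 against 0.00 over the 10536 genes tested, of which 49.6% were above 0. Both KO libraries lay above both WT libraries for 8 of the 10, against 18.6% of all genes, and the exceptions were Myl3 and Csrp3. Scaled by library totals in place of TMM, which moved the median of all genes to -0.19, the count was 6 of 10, as Myoz2 and Mb then overlapped. The share of all genes without overlap on that scale was not counted. Of all counted reads, the 10 genes together held 0.210% and 0.330% in AMPKα2 KO 1 and KO 2. They held 0.152% and 0.206% in WT 1 and WT 2. At an unadjusted p under 0.05, 6 of the 10 were higher in KO (4.78% of all genes), and 0 passed an adjusted p under 0.1, where 0.484% of all genes did. DESeq2 called 1 of the 10, Tnnt1, at an adjusted p of 0.0980, and 0.508% of all genes. Without the filter on low counts edgeR called 6 (Tnnt1, Tpm3, Myl2, Mybpc1, Tnnc1 and Tnni1) and 2.58% of all genes. The AMPKα2 WT 1 library was the lowest for 9 of the 10 genes. Without it the log2 fold change of Tnnt1 was 0.78, the median was 0.58, no member passed and 9 of 10 were above 0. Without AMPKα2 WT 2 the median was 1.30 and Tnnt1 was called, with a log2 fold change of 2.17 (SE 0.43, adjusted p = 0.0693, edgeR), as were 0.907% of all genes.

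Other genes of the slow programme had the same direction in AMPKα2. Of 7, Myh7b had too few reads to be tested, and the other 6 had log2 fold changes above 0 (5 of 6 when scaled by library totals) with a median of 0.65, and 0 passed the test. Myh7, the slow myosin heavy chain, stood at 1025 and 973 CPM in KO against 252 and 536 CPM in WT, and the log2 fold change was 1.34 (SE 0.35, adjusted p = 0.258, edgeR). Atp2a2, the slow calcium pump, stood at 97.6 and 75.9 CPM in KO against 35.1 and 49.1 CPM in WT, and the log2 fold change was 1.05 (SE 0.28, adjusted p = 0.258, edgeR). Neither of these groups overlapped. Of 13 tested regulators of fibre type, 9 were above 0 with a median of 0.03, and 0 passed.

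The fast counterparts had fold changes of both signs in the AMPKα2 model. Of 15 fast genes, 11 were above 0 with a median log2 fold change of 0.16, both KO libraries were above both WT libraries for 7 (18.6% of all genes), and 0 passed. Scaled by library totals, 7 of the 15 were above 0 and the median was -0.02. Tnnt3, the fast troponin T, stood at 6892 and 7171 CPM in KO against 5975 and 6690 CPM in WT (log2 fold change 0.15, SE 0.31). Tnni2 and Tnnc2, the fast troponins I and C, had log2 fold changes of -0.06 (SE 0.29) and -0.25 (SE 0.34). The fast light chains Mylpf and Myl1 stood at 0.03 (SE 0.39) and -0.06 (SE 0.30). Tpm1, Mybpc2 and Myoz1 stood at 0.39 (SE 0.33), 0.51 (SE 0.30) and 0.33 (SE 0.27). Atp2a1, the fast calcium pump, and Myh2, the type IIA myosin heavy chain, had an unadjusted p under 0.05 and are named after their values were seen. Their log2 fold changes of 0.82 (SE 0.35, adjusted p = 0.576, edgeR) and 0.72 (SE 0.30, adjusted p = 0.554, edgeR) lay within the range of the slow genes.

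The ratio of a slow gene to its fast counterpart inside a library does not depend on scaling between libraries. For 7 of 8 pairs both AMPKα2 KO ratios lay above both WT ratios, the exception being Myl3 with Myl1. How often the ratios of other gene pairs separate in this way was not counted. The difference in mean log2 ratio, KO minus WT, ran from 0.47 for Mybpc1 with Mybpc2 to 1.44 for Tnnc1 with Tnnc2, with a median of 0.91. In AMPKα1 the median was also 0.91 and the 8 differences ran from 0.00 for Mybpc1 with Mybpc2 to 2.11 for Tpm3 with Tpm1, but the KO and WT ratios overlapped for 5 of the pairs. The 3 without overlap were Tnni1, Myl2 and Tpm3 with their counterparts, each higher in KO. A ratio does not show which of its 2 genes moved. The median log2 fold change of the 15 fast genes was -0.81 in AMPKα1 and 0.16 in AMPKα2. For Tnnt1 with Tnnt3 the log2 ratio was -4.23 and -4.13 in AMPKα2 KO and -6.11 and -4.90 in WT. The 2 KO libraries agreed closely and the WT libraries differed by more than 1 unit. For Tpm3 with Tpm1 the ratio was -5.09 and -4.66 in AMPKα2 KO and -6.23 and -5.27 in WT. With 2 libraries against 2, an exact two-sided permutation test of a single ratio cannot give a p below 0.333.

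**Figure D2:**
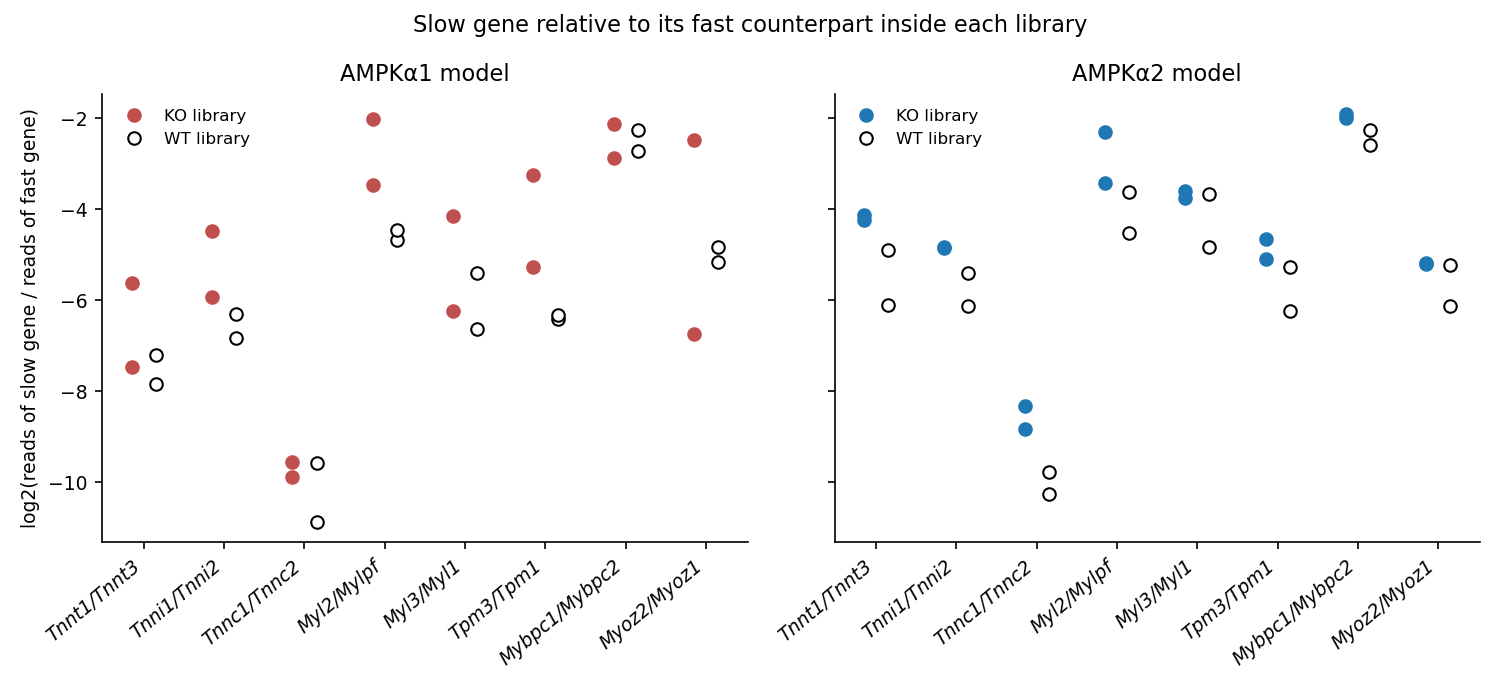
Log2 ratio of the reads of each slow gene to those of its fast counterpart (vertical axis) in every KO library (filled points) and WT library (open points) of the AMPKα1 model (left) and the AMPKα2 model (right). The KO points lie above the WT points for 7 of 8 pairs in the AMPKα2 model and for 3 of 8 in the AMPKα1 model.

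In the AMPKα1 model the slow genes had no common direction. Of the 10, 6 had log2 fold changes above 0 and 4 below, with a median of 0.43 against -0.03 over 13924 genes, and 0 passed the test. No gene in the table was called in this comparison (0% of 13924), with 589 genes at an unadjusted p under 0.05. DESeq2 called 27 genes higher and 88 lower over all genes, and 0 of the 10. Tpm3 stood at 1006 and 372 CPM in KO against 249 and 221 CPM in WT. Both KO libraries were higher, with KO 1 far above the library labelled KO 2. The log2 fold change was 1.55 (SE 0.54, adjusted p = 0.763, edgeR). Csrp3 was the other gene with both KO libraries above both WT libraries (13.6% of all genes), at 175 and 155 CPM in KO against 121 and 110 CPM in WT. Its log2 fold change was 0.51 (SE 0.41, adjusted p = 0.821, edgeR).

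Mb and Mybpc1 had both AMPKα1 KO libraries below both WT libraries, as did 18.9% of all genes. Mb stood at 145 and 157 CPM in KO against 292 and 280 CPM in WT, and replicates of a group were close together. The log2 fold change was -0.92 (SE 0.38, adjusted p = 0.763, edgeR), and with Tpm3 it was 1 of the 2 members at an unadjusted p under 0.05. Tpm3 alone was higher in KO at that level, as were 1.38% of all genes. Mybpc1 stood at 240 and 136 CPM in KO against 284 and 260 CPM in WT (log2 fold change -0.53, SE 0.44, adjusted p = 0.843, edgeR). Scaled by library totals, which moved the median of all genes in this model to 0.22, 4 members lay above without overlap (Tpm3, Csrp3, Myl2 and Tnnc1) and 1 below (Mb). The shares of all genes above and below on that scale were not counted.

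For 5 of the remaining 6 genes the KO replicates were far apart, with 1 on each side of WT. The AMPKα1 KO 1 library had 1344 CPM of Myl2 and the library labelled KO 2 had 452, whereas WT stood at 543 and 467 CPM (log2 fold change 0.83, SE 0.56). Myl3 stood at 1012 and 250 CPM in KO against 532 and 303 CPM in WT (log2 fold change 0.60, SE 0.69). Tnni1 stood at 153 and 45.8 CPM in KO against 79.7 and 47.2 CPM in WT (log2 fold change 0.65, SE 0.69). In these 3 genes the fold above 0 came with the library labelled KO 2 below both WT libraries. Tnnt1 stood at 187 and 38.7 CPM in KO against 153 and 73.9 CPM in WT (log2 fold change -0.01, SE 0.80). Myoz2 had the widest spread, at 146 and 9.39 CPM in KO against 84.1 and 38.2 CPM in WT (log2 fold change 0.35, SE 1.14). In these 5 genes KO 1 was the highest and the library labelled KO 2 the lowest of the 4 libraries. Tnnc1 was nearly level, at 25.6 and 26.5 CPM in KO against 31.1 and 25.8 CPM in WT (log2 fold change -0.13, SE 0.71). Without AMPKα1 KO 1, 8 of the 10 log2 fold changes were below 0 and the median was -0.61. Without the library labelled AMPKα1 KO 2, 7 were above 0 and the median was 0.98. Those 7 were Tpm3 (2.09), Myl2 (1.41), Tnni1 (1.27), Myl3 (1.27), Myoz2 (1.26), Tnnt1 (0.71) and Csrp3 (0.59), Mb (-0.98), Mybpc1 (-0.19) and Tnnc1 (-0.16) were below 0, and 0 passed. The median was 0.77 without WT 1 and 0.10 without WT 2. The log2 fold change of Tpm3 was 0.66 without KO 1.

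Genes next to these in the slow and fast programmes differed in their spread in AMPKα1. Myh7 stood at 2395 and 1416 CPM in KO against 666 and 659 CPM in WT, so that both KO libraries were above both WT libraries, with a log2 fold change of 1.52 (SE 0.39, adjusted p = 0.763, edgeR). Atp2a2 stood at 177 and 76.7 CPM in KO against 60.6 and 92.4 CPM in WT (log2 fold change 0.73, SE 0.57). Of the 7 other slow genes 6 were above 0 and 0 passed. Of the 15 fast genes 0 were above 0, both KO libraries were below both WT libraries for 13 (18.9% of all genes), the median was -0.81, and 0 passed. Tnnt3 was among them, at 9217 and 6801 CPM in KO against 35190 and 10948 CPM in WT (log2 fold change -1.53, SE 0.56). Of the other named counterparts, Mylpf stood at -1.21 (SE 0.32), Myoz1 at -1.05 (SE 0.40), Tnni2 at -1.04 (SE 0.47), Tnnc2 at -0.81 (SE 0.51), Tpm1 at -0.71 (SE 0.33), Mybpc2 at -0.62 (SE 0.36) and Myl1 at -0.52 (SE 0.29). Of 13 tested regulators, 10 were above 0 and 0 passed.

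**Figure D3:**
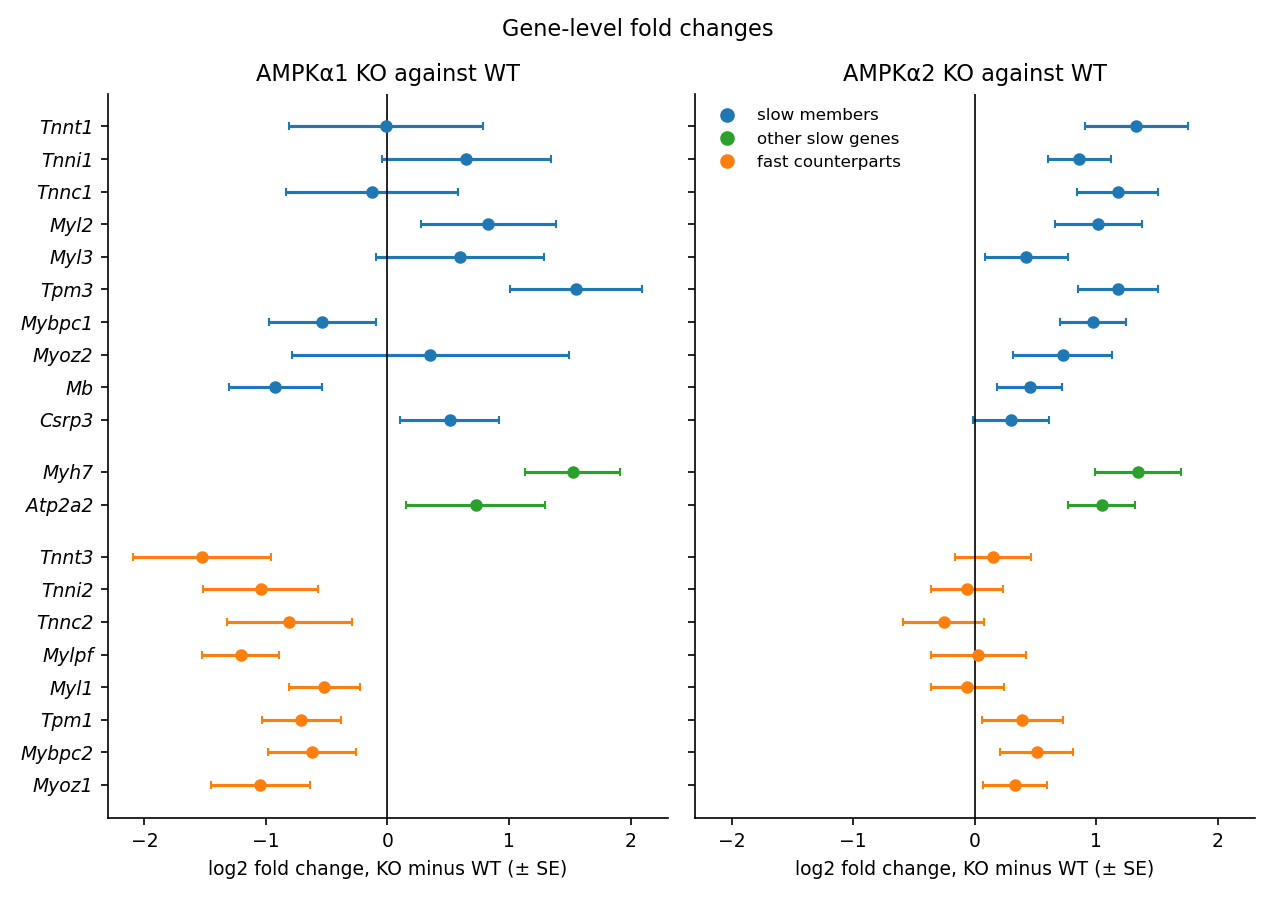
Log2 fold change of KO against WT (horizontal axis, points, with SE as bars) at gene level in the AMPKα1 model (left) and the AMPKα2 model (right) for the 10 slow genes, 2 other slow genes and 8 fast counterparts. In AMPKα2 the slow genes, Myh7 and Atp2a2 included, lie between 0.30 and 1.34 and the fast counterparts between -0.25 and 0.51, while in AMPKα1 the slow genes spread from -0.92 to 1.55 with wider bars.

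Whether the KO effect differed by model was asked with a genotype by model term over all 8 libraries, and 0 of the 10 passed (0.0586% of 15349 genes did). The lowest adjusted p among them was 0.519, and DESeq2 called 0 (37 above 0 and 134 below over all genes). An unadjusted p under 0.05 was reached by 2 members and by 1063 of the 15349 genes. Those 2 were Mb, with a difference in log2 fold change, AMPKα1 minus AMPKα2, of -1.35 (SE 0.41), and Mybpc1, at -1.48 (SE 0.52). Tnnt1 and Tnnc1 stood at -1.30 (SE 1.01) and -1.27 (SE 0.64), and the other 6 between -0.31 and 0.41.

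Markers of other cell types were set beside these levels. The summed level of 4 smooth muscle markers was 292 to 293 CPM in AMPKα1 KO against 123 to 193 CPM in AMPKα1 WT, and 92.5 to 104 CPM against 89.2 to 101 CPM in AMPKα2. In AMPKα1, Myl9 alone carried the higher sum, at 206 and 190 CPM in KO against 9.83 and 17.4 CPM in WT, while Acta2 was lower, at 15.1 and 33.7 CPM against 51.9 and 105 CPM. Of the 4, 2 had log2 fold changes above 0. The 4 adipocyte markers summed to 344 and 656 CPM in AMPKα1 KO against 242 and 353 CPM in WT, and to 90.9 and 155 CPM against 105 and 144 CPM in AMPKα2. The 5 red blood cell markers summed to 485 and 885 CPM against 567 and 1184 CPM in AMPKα1, and to 968 and 1490 CPM against 747 and 1130 CPM in AMPKα2. The 4 macrophage markers summed to 58.9 and 73.2 CPM in AMPKα1 KO against 90.6 and 107 CPM in WT. C1qa was lower in both KO libraries (13.4 and 27.9 CPM against 64.4 and 73.6 CPM), whereas Adgre1 (16.5 and 18.2 CPM against 9.28 and 4.64 CPM) and Csf1r were higher in both. The 3 endothelium markers overlapped, at 107 and 160 CPM against 145 and 203 CPM. In AMPKα2 the macrophage sums were 33.8 and 39.5 CPM against 35.9 and 41.5 CPM. The endothelium sums were lower in both KO libraries, at 25.2 and 33.2 CPM against 34.2 and 34.9 CPM. Among the endothelium markers Kdr alone was lower in both (5.74 and 8.26 CPM against 11.1 and 9.44 CPM). Of the 2 satellite cell markers, Pax7 was in the table, at 0 to 28.7 CPM, and Myf5 was not. The 3 markers of type I fibres, abundant in the neighbouring soleus, were Myh7, Atp2a2 and Casq2. They summed to 1069 and 1156 CPM in AMPKα2 KO against 301 and 603 CPM in WT. In AMPKα1 their sums were 1701 and 2934 CPM in KO against 889 and 995 CPM in WT. All 3 markers had both KO libraries above both WT libraries in AMPKα2, but in AMPKα1 Myh7 alone did. There Atp2a2 (177 and 76.7 CPM against 60.6 and 92.4 CPM) and Casq2 (362 and 208 CPM against 163 and 244 CPM) overlapped. At most 1 marker of each of these lists was at 0 in a library, and their part in the results was not tested.

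Where the reads of the slow genes ended differed between the models in KO and WT alike. Of the 91 sites, 15 lay at annotated 3′ ends (3′ UTR or within 50 bases after the transcript), 31 in coding exons and 45 in introns. Reads at 3′ ends made up 87.8% to 91.9% of the members' reads in the AMPKα1 model and 64.5% to 76.6% in the AMPKα2 model. Coding exons took 0.320% to 2.67% and 16.4% to 26.5%, and introns 7.73% to 11.6% and 6.69% to 8.99%. Within AMPKα2 the coding exon share was 26.5% and 19.0% in KO against 16.4% and 16.7% in WT. The 3′ end share was 64.5% and 73.1% in KO against 75.7% and 76.6% in WT, so neither share overlapped between the groups. The table lists a site only with at least 16 reads over the 8 libraries, so the 21 coding exon sites with 0 reads in AMPKα1 are listed through AMPKα2 alone, and their number is not a comparison of the models. Beyond these genes, only reads outside the most-read site were measured, wherever that site lay. Over 581 genes with at least 100 reads in every library and more than 1 site, the median share of reads outside the most-read site was 10.1% to 11.9% in AMPKα1 and 25.8% to 35.1% in AMPKα2. In AMPKα2 this median was 35.1% and 28.8% in KO against 26.7% and 25.8% in WT, also without overlap. The part of this difference in the gene-level folds, which sum all sites, was not tested. The models also differ in the age of the KO mice and, by the methods, in their strain, which cannot be told apart from the model here.

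**Figure D4:**
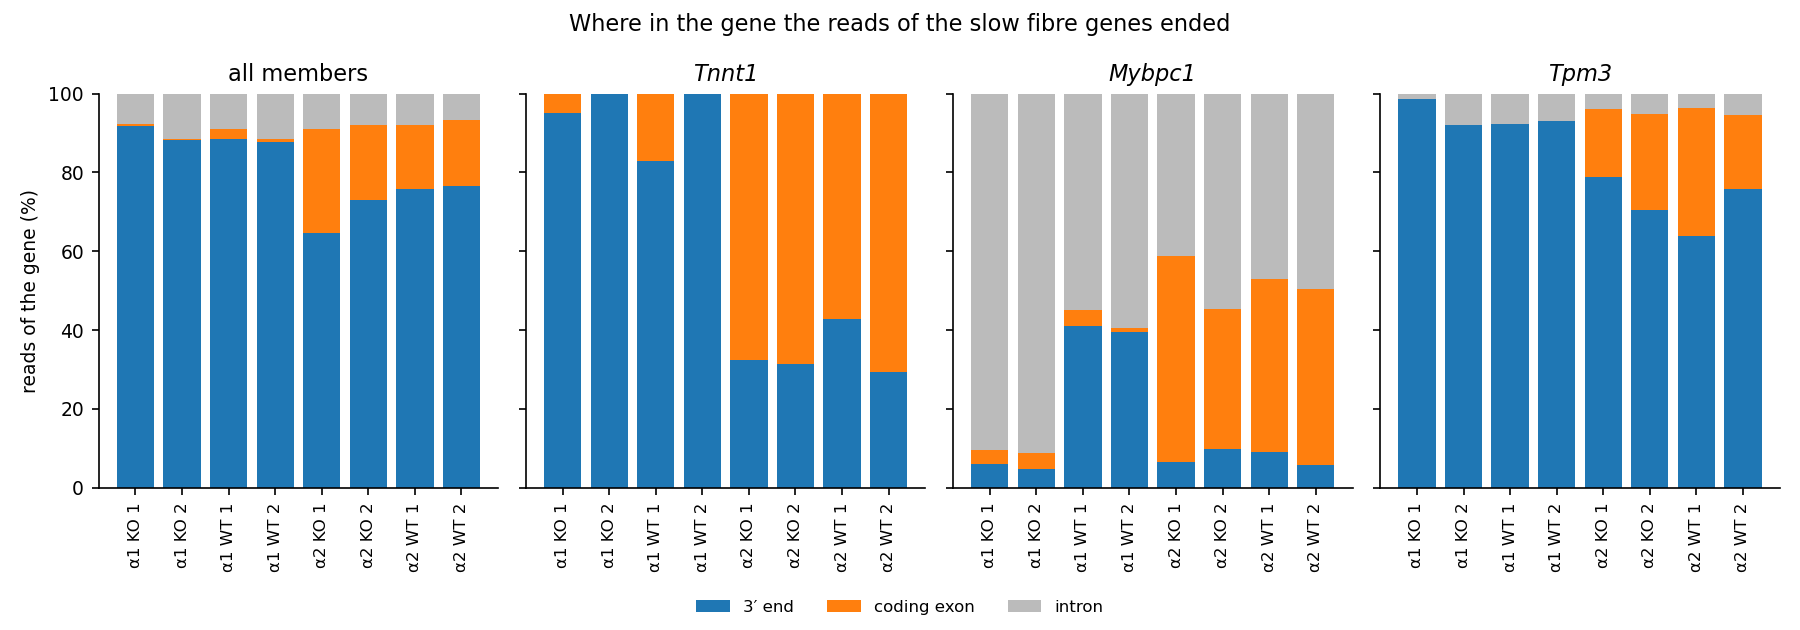
Share of reads (vertical axis, %) at annotated 3′ ends, in coding exons and in introns in each of the 8 libraries, for all slow genes together and for Tnnt1, Mybpc1 and Tpm3. Coding exon reads are a visible part of each bar in the 4 AMPKα2 libraries, and the 3′ end part of Mybpc1 is largest in the 2 AMPKα1 WT libraries.

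Tnnt1, whose sites are printed above, showed this contrast clearly. Reads at sites are given here and below before scaling between libraries, whereas the folds use scaled values. Its 3′ UTR site at position 4504660 of chromosome 7, which follows an AATAAA, took 87.2%, 100%, 82.6% and 99.6% of the gene's reads in AMPKα1 KO 1, KO 2, WT 1 and WT 2. In AMPKα2 KO it took 31.0% and 29.6%, as the exon 8, 9 and 10 sites held most of the remainder. The exon 8 site had 138 and 235 reads in AMPKα2 KO against 57 and 88 in WT (log2 fold change 1.51, SE 0.47, adjusted p = 0.602, edgeR). The exon 10 site had 104 and 197 reads in KO against 56 and 79 in WT (log2 fold change 1.31, SE 0.45). The exon 9 site had 107 and 180 reads in KO against 37 and 139 in WT (log2 fold change 0.75, SE 0.72). The 3′ UTR site had 178 and 309 reads in KO against 119 and 134 in WT (log2 fold change 1.13, SE 0.39, adjusted p = 0.626, edgeR). The log2 fold change of Tnnt1 in AMPKα2 was thus above 0 both at the ordinary 3′ end and at these exon sites, none of which passed the test. In AMPKα1 KO 1, KO 2, WT 1 and WT 2 all coding exon sites of Tnnt1 together had 32, 0, 48 and 0 reads.

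Mybpc1, the longest gene of the group, had 47 sites and no dominant one. Its most-read site, in the last of 29 exons, had 51 and 24 reads in AMPKα1 KO against 214 and 355 in AMPKα1 WT. These were 6.05% and 4.86% of the gene's reads in KO and 41.1% and 39.5% in WT, so that the groups were far apart on either scale. The log2 fold change was -3.51 (SE 0.75, adjusted p = 0.420, edgeR), and DESeq2 gave -3.37 with an adjusted p of 0.0388. The test of its share of the gene gave an adjusted p of 0.502. In AMPKα2 the same site had 36 and 92 reads in KO against 67 and 29 in WT (log2 fold change 0.70, SE 0.43). Scaled, these were 23.0 and 36.2 CPM in KO against 19.6 and 13.7 CPM in WT. The intron 17 site, the next most read, had 41 and 48 reads in AMPKα1 KO, 29 and 78 in AMPKα1 WT, 86 and 193 in AMPKα2 KO and 154 and 95 in AMPKα2 WT. Its log2 fold changes were -0.74 (SE 1.33) and 0.42 (SE 0.35). Scaled, the AMPKα2 values of this site were 54.8 and 75.9 CPM in KO against 45.0 and 44.9 CPM in WT. Among the other named sites, 2 were uneven between AMPKα1 replicates. The intron 7 site had 9 and 169 reads in KO against 6 and 39 in WT, and the intron 25 site had 142 and 0 reads in KO against 57 and 41 in WT. In AMPKα2, by contrast, the coding exon 5 site had 94 and 69 reads in KO against 68 and 46 in WT, with 0 in each AMPKα1 library.

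**Figure D5:**
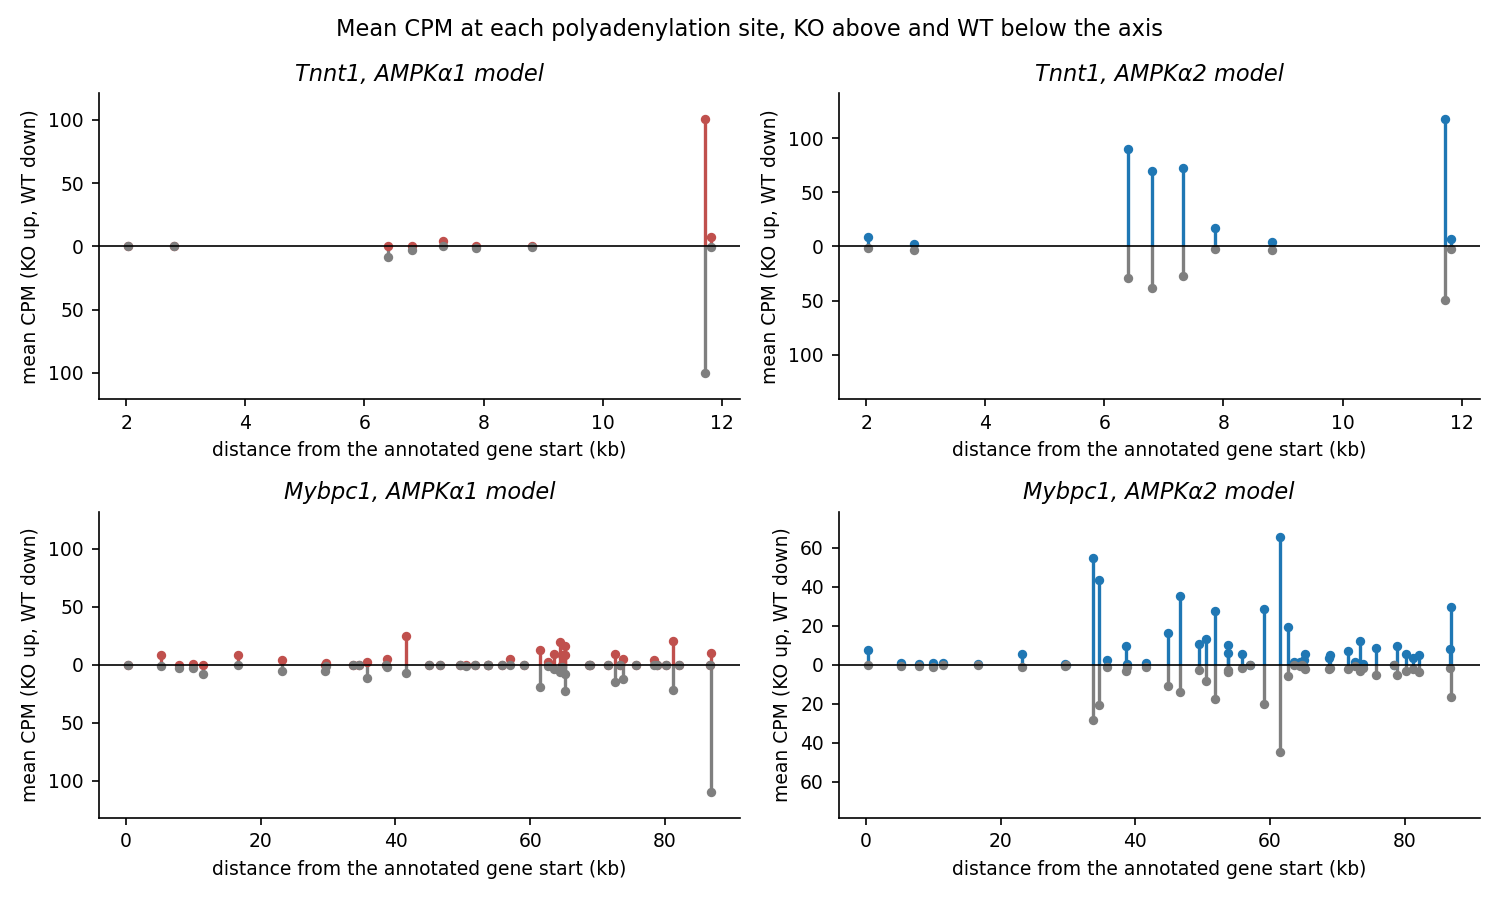
Mean CPM of the KO libraries (upward) and the WT libraries (downward, same scale) at each polyadenylation site of Tnnt1 (top) and Mybpc1 (bottom) against the distance from the annotated gene start in kb, for the AMPKα1 model (left) and the AMPKα2 model (right). In the AMPKα1 model most Tnnt1 reads sit at the 3′ end. The tallest Mybpc1 line there is its 3′ UTR site in WT, although introns hold 54.9% to 91.3% of its reads in the libraries of that model. In the AMPKα2 model both genes have many internal sites.

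Tpm3 has alternative last exons, and its reads came mostly from the proximal one. The proximal site had 3402 and 1127 reads in AMPKα1 KO against 384 and 684 in AMPKα1 WT, and the distal site 69 and 107 against 33 and 26. The proximal log2 fold change was 1.51 (SE 0.52, adjusted p = 0.543, edgeR), and 0.49 without KO 1 and 2.07 without the library labelled KO 2. In AMPKα2 the proximal site had 413 and 660 reads in KO against 194 and 323 in WT, a log2 fold change of 1.19 (SE 0.47, adjusted p = 0.629, edgeR). The distal site had 40 and 37 reads in KO against 50 and 35 in WT, or 25.5 and 14.6 CPM against 14.6 and 16.5 CPM. The proximal share of Tpm3 reads was 71.8% and 66.6% in AMPKα2 KO and 50.8% and 68.3% in WT, so the shares overlapped.

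Myoz2 and Tnnc1 had many of their reads in introns. The Myoz2 3′ UTR site had 215 and 9 reads in AMPKα1 KO against 133 and 54 in WT, a log2 fold change of -0.66 (SE 1.15), while a site in intron 3 at position 123022932 of chromosome 3 had 211 and 19 reads in KO against 4 and 3 in WT. That intron site had a log2 fold change of 4.25 (SE 1.66, adjusted p = 0.543, edgeR), which was 1.64 without KO 1 and 5.13 without the library labelled KO 2. It had at most 4 reads in any AMPKα2 library. A further intron 3 site had 72 and 0 reads in AMPKα1 KO against 6 and 57 in WT, without a common direction (log2 fold change -0.07, SE 2.21). In AMPKα2 the Myoz2 3′ UTR site had 28 and 55 reads in KO against 26 and 36 in WT (log2 fold change 0.58, SE 0.49). The most-read site of Tnnc1 lay in intron 4, with 54 and 66 reads in AMPKα1 KO against 40 and 65 in WT (log2 fold change -0.40, SE 1.18), and with 12 and 10 against 12 and 7 in AMPKα2 (log2 fold change 0.57, SE 0.60). Myl2, Myl3, Csrp3, Tnni1 and Mb were read mainly at 1 site each, which held 99.1%, 98.7%, 97.5%, 94.2% and 90.3% of their reads over the 8 libraries.

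At site level 0 of the 50 tested member sites passed in AMPKα1 (0.00454% of 44024 sites did) and 0 of 63 in AMPKα2 (0.056% of 23218 sites did). In AMPKα1, 4 member sites, 2 in each direction, had an unadjusted p under 0.05, as did 1353 of all 44024 sites. DESeq2 called 1, the Mybpc1 3′ UTR site, and 0.442% of all sites. In AMPKα2, 62 of the 63 had log2 fold changes above 0, with a median of 1.10 against 0.01 over all sites. Of the 62, 20 had an unadjusted p under 0.05, as did 1763 of all 23218 sites in either direction. DESeq2 called 0 member sites, and 81 higher and 15 lower over all sites. Both KO libraries were above both WT libraries at 44 of the 63, against 23.3% of all sites, but sites of 1 gene share their molecules and are not separate measurements. For the share of its gene no member site was called, 0 of 49 in AMPKα1 (0.00601% of 33281 sites were) and 0 of 62 in AMPKα2 (0.129% of 14707). At an unadjusted p under 0.05 there were 3 and 1 member sites, against 756 of 33281 and 472 of 14707 over all sites.

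The genes with the most similar pattern over the 8 libraries were found among 1308 genes with at least 50 reads in each library, by the root mean square distance of log2 CPM, centred within each model, to the summed profile of the 10 slow genes. The nearest non-members were Cog6 at 0.12, 2010107E04Rik at 0.18, Idh2, a mitochondrial isocitrate dehydrogenase, at 0.21, Eif4b, a translation initiation factor, at 0.22 and LOC102634333 at 0.24. Of the members with enough reads, Tnni1 lay at 0.14, Myl2 at 0.21 and Myl3 at 0.24, and Mb was the farthest at 0.62. In AMPKα1 KO 1, the library where most slow genes peaked, the centred log2 level was 0.99 for Cog6 and -0.52 for Mb. These distances describe 8 libraries and were not tested.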

How the data were processed

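WTTS-seq libraries of gastrocnemius muscle were made from 2 KO and 2 WT mice of each model. The authors filtered and trimmed the reads, mapped them with TMAP, clustered read ends into sites and assigned these to genes with Cuffcompare. The deposited values are raw read counts per site on GRCm38.p5, without normalization, for sites with at least 16 reads over the 8 libraries. The lists and members were chosen with earlier results of these data known.

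Counts were summed per gene symbol. KO was compared with WT within each model with edgeR 4.0.16 (R 4.3.3): TMM factors, a robust quasi-likelihood fit on genotype, features with at least 16 reads over the libraries fitted, and a Benjamini-Hochberg adjusted p under 0.1. Shares of a gene's reads were tested with diffSpliceDGE, and the interaction over all 8 libraries. The SE was derived from the F statistic and is approximate. The p-values rest on the spread between the 2 mice of each group, with dispersion estimates that borrow from all features fitted. The code was tested on simulated data. Alternatives were DESeq2 1.42.0, other scalings, filters, thresholds and site sets, a replicate block and each library left out. The ratios to fast genes and library totals for non-overlap were added after seeing the data. Named sites were the most-read site of each gene, those with at least 5% of its reads in a library with at least 100, and called sites. Those of Mybpc1, 21 by this rule, are given by example, and folds are printed for sites with 10% to 90% of the gene's reads. Locations and bases came from GENCODE release 21. Intervals and floors cover counting error only.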

Additional observations from a re-analysis of the deposited data

How the results depend on the processing

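Among the 10 slow genes, the direction of the AMPKα2 gene-level fold was kept in all alternatives except for Myl3 and Csrp3. Of the fast counterparts 7 of 15 in place of 11 were above 0 with library totals, and of the other slow genes 5 of 6 with library totals or the replicate block. Leaving out 1 library at a time gave log2 fold changes from -0.031 to 1.07 for Myl3 and from -0.23 to 0.66 for Csrp3 in AMPKα2, and from -0.060 to 2.54 for the Tnnt1 exon 9 site. The count of slow genes called in AMPKα2 was 1 with DESeq2 and 6 without the filter on low counts. Calls with 1 library left out rest on a group of 1 library and are not compared here. Site counts in AMPKα1 were 1 with DESeq2, 1 with library totals (the Tpm3 proximal site) and 1 with all 8 libraries in one fit (the Mybpc1 3′ UTR site, as with DESeq2), and in AMPKα2 5 without the filter. Over all sites in AMPKα1, DESeq2 called 43 higher and 175 lower of 49369. Library totals called 18 and 30 of 44024, and the fit of all 8 libraries 29 and 403 of 56483. Without the filter, 425 higher and 132 lower of 50017 sites were called in AMPKα2. The causes were not tested. Over all genes in AMPKα2, edgeR called 27 higher and 24 lower, against 246 and 130 without the filter, 70 and 91 with library totals, 42 and 35 with the replicate block, and 54 and 20 with DESeq2.

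In AMPKα1, leaving out 1 library at a time gave log2 fold changes from -1.56 to 0.71 for Tnnt1, -0.47 to 1.27 for Tnni1, -0.22 to 0.015 for Tnnc1, -0.17 to 1.41 for Myl2, -0.74 to 1.27 for Myl3 and -2.70 to 1.26 for Myoz2. For sites it gave -1.50 to 0.51 for the Tnnt1 3′ UTR site, -4.28 to 0.93 for the Myoz2 3′ UTR site and -7.91 to 1.44 for the Myoz2 intron 3 site with 57 reads in WT 2. Signs also turned for Tnnt1 with DESeq2 (0.044), RLE size factors (0.042), library totals (0.27), all 8 libraries in one fit (0.039) and the most-read site (0.002), and for its 3′ UTR site with DESeq2 (0.014) and library totals (0.26). They turned for Tnnc1 with library totals (0.14), for Myoz2 with the most-read site (-0.47), and for that Myoz2 intron site with DESeq2 (0.054), RLE size factors (0.042), library totals (0.12) and all 8 libraries (0.019). With library totals, non-overlapping members in AMPKα1 numbered 4 above and 1 below, and all genes were not counted on that scale.

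KO and WT libraries share replicate numbers but come from different mice, and deviations of same-numbered libraries had correlations of 0.04 in AMPKα1 and -0.02 in AMPKα2. With the replicate block 4 member sites were called in AMPKα2 (Tnnt1 exons 8 and 11, a further Tnnt1 site and a Mybpc1 site), the Myoz2 log2 fold change in AMPKα1 was -0.58, and no gene-level call of a member was made. Over all sites in AMPKα2 the block gave 368 higher and 151 lower, against 6 and 7 without it. Depth limits Tnnc1 and Myoz2, at 30 to 71 reads per AMPKα2 library for the former.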
